A study of Mus musculus with 9 samples.

Results

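The genes described are the 10 core components of the Notch pathway named for this comparison: the receptors Notch1, Notch2, Notch3 and Notch4, the ligands Jag1, Jag2, Dll1 and Dll4, and the transcriptional targets Hes1 and Hey1. They were chosen by name, not by a threshold on a value, from 55450 genes counted, and 10 of the 10 passed edgeR's filter on low counts, which left 19357 genes to be tested. RNA-sequencing was performed on EYFP+ live cells sorted from the dissociated mammary glands of adult nulliparous mice of 3 genotypes, with 3 libraries each. Every mouse carried lsl-EYFP and K8CreERT2, a tamoxifen-inducible Cre recombinase driven by the promoter of Keratin 8, a keratin of luminal cells, and every mouse received tamoxifen (5 doses of 2 mg). Control libraries came from lsl-EYFP; K8CreERT2 mice, libraries labelled LATS1/2-KO from mice with floxed LATS1/2 in addition, and libraries labelled LATS1/2-Sox9-KO from mice with floxed LATS1/2 and floxed Sox9. LATS1 and LATS2 are the kinases of the Hippo pathway that restrain the transcriptional coactivators YAP and TAZ. By the labels, glands were taken 7 days after tamoxifen ended. Whether the 3 libraries of a genotype came from 3 separate mice is not given in the sources used here, so p-values measure the spread between these libraries, which may be technical in part. The control libraries held 44167762 to 47003587 counts each, the LATS1/2-KO libraries 50508666 to 61745346 and the LATS1/2-Sox9-KO libraries 55503365 to 61967651.

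Notch signaling passes between neighboring cells. A ligand of the Jagged (Jag) or Delta-like (Dll) family on one cell binds a Notch receptor on the next, the receptor is cut by ADAM proteases and then by γ-secretase, and its freed intracellular part enters the nucleus, where it joins RBPJ and a Mastermind (MAML) coactivator and switches on HES and HEY genes, which encode transcriptional repressors. In the mammary gland, Notch activity is known for promoting the luminal fate, and Dll1 is known as a ligand of basal cells.

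The targeted genes were examined first. Lats1 (chromosome 10, 7681214 to 7716460) had 5672, 5928 and 5940.4 normalized counts in control replicates 1, 2 and 3, 2090.1, 1923 and 2336 in the libraries labelled LATS1/2-KO and 2058, 1844 and 1709 in those labelled LATS1/2-Sox9-KO. Normalized counts are counts after scaling each library to the average effective size of the 9, and all coordinates are on GRCm38. The deletion libraries thus held less Lats1 than every control library. Lats2 (chromosome 14, 57689662 to 57758388) had 1039, 865 and 1219.7 normalized counts in control, 1256, 1434 and 1723 in LATS1/2-KO and 1957, 1580.4 and 1239.7 in LATS1/2-Sox9-KO libraries, so its counts did not fall with its label. Each deletion library lay above every control library. By edgeR's test against control, Lats2 passed as higher in LATS1/2-Sox9-KO (log2 fold change 0.61, adjusted p = 0.0240) and did not pass in LATS1/2-KO (0.50, adjusted p = 0.0571). Of the exonic bases of Lats2, 42.4% are shared with another annotated gene, Gm49361, on the same strand. Sox9 (chromosome 11, 112782224 to 112787760) had 23313, 19948 and 21534 normalized counts in control, 7205, 9506 and 12433 in LATS1/2-KO and 8812, 6756 and 6459.8 in LATS1/2-Sox9-KO libraries. It was thus below every control library in both deletion groups, although it is floxed only in the latter. Gene counts sum all exons and do not separate transcripts without the floxed exons, and because of Lats2 and Sox9 the deletion groups are named here by their labels.

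The labelled cell type was checked against its markers, and the luminal keratins were abundant in every library. The 6 luminal markers (Krt8, Krt18, Krt19, Epcam, Cldn3 and Cldn4) summed to a median of 891998 normalized counts in control, 985898 in LATS1/2-KO and 1514907 in LATS1/2-Sox9-KO libraries, with Krt18 the most abundant. They did not move together. At an adjusted p of 0.05 from edgeR, Krt8 (log2 fold changes against control of 0.58 in LATS1/2-KO and 1.26 in LATS1/2-Sox9-KO) and Krt18 (0.71 and 1.53) were higher in both deletion groups. Epcam was lower in both (-0.74 and -1.30). Krt19 passed as lower in LATS1/2-KO (-1.03) and did not pass in LATS1/2-Sox9-KO (-0.37), Cldn3 passed as higher in LATS1/2-Sox9-KO (0.55) and did not pass in LATS1/2-KO (0.41), and Cldn4 passed in neither. The 6 basal markers summed to medians of 4601, 156810 and 248159 in the same order. In the deletion libraries this sum came mostly from Krt14, which had 909, 501 and 606 normalized counts in control libraries and at least 117090 in each deletion library. Trp63, the transcription factor that defines basal cells and the most abundant of the 6 in control replicates 2 and 3, went the other way, with 373, 2154 and 2133 normalized counts in control, 70.2, 40.7 and 53.8 in LATS1/2-KO and 32.5, 109.6 and 114 in LATS1/2-Sox9-KO libraries. The other basal markers were mixed by the same test. Acta2, an actin of contractile cells, was higher in both deletion groups (log2 fold changes of 3.72 and 2.39) and Myh11, a smooth muscle myosin, lower in both (-2.21 and -1.23). Krt5 passed as higher (1.59) and Oxtr as lower (-1.90) in LATS1/2-Sox9-KO, and neither passed in LATS1/2-KO (0.06 and 0.64).

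For the members, the 250 bases before the annotated start were taken from RefSeq (GRCm38.p6), in which 8 of the 10 members matched with 9 windows. Hes1 and Hey1 had no entry. The pair shown in full belongs to Notch3 and Dll1, the receptor with the largest decrease and the only member ligand with an increase in both deletion groups. The Notch3 window is chr17:32166891-32167140 on the minus strand and holds no annotated exon. Of the 2 starts annotated for Dll1, the window of the upstream one is chr17:15376933-15377182 on the minus strand, where the exon of a noncoding gene, A930024N18Rik, lies on the opposite strand. Capitals mark the N box, CACNAG or its reverse complement CTNGTG, the sequence by which HES proteins are known to bind DNA. Each sequence is written 5′ to 3′ on the strand of the gene.
Notch3: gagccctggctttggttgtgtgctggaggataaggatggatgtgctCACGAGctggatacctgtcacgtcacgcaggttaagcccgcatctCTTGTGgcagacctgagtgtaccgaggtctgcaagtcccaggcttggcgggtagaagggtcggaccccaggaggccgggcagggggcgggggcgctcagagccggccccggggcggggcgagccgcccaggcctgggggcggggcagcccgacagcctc
Dll1, upstream start: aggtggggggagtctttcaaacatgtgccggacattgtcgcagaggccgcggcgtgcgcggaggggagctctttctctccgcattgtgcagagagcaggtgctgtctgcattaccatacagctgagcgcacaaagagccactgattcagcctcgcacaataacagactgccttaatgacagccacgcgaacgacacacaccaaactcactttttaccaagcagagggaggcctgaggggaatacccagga

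The N box was found in 4 of the 9 windows of the members, beside 36.7% of the 32817 promoter windows of the same length in the table. The Notch3 window held 2, those of Notch1, Notch2 and Dll4 held 1 each, and those of Notch4, Jag1, Jag2 and Dll1 none, so it was present and absent among members that fell. The core bound by RBPJ, TGGGAA or TTCCCA, was in 0 of the 9 windows of the members, against 21.6% of all windows. The target genes Hes1 and Hey1 had no window, so their promoters were not searched for any of these sequences. GGAATG or CATTCC, the core bound by the TEAD factors through which YAP and TAZ act on DNA, was found in the windows of Notch1 and Notch4, against 12.6% of all windows. Each of these windows overlaps an annotated exon of its own gene, and that of Notch1 lies inside the annotated span of Notch1 (26457903 to 26516663). The stretches that hold the TEAD core follow, with this core in capitals. They are chr2:26504029-26504058 on the minus strand for Notch1 and chr17:34564065-34564094 on the plus strand for Notch4.
Notch1: gccCATTCCatacacccctcCATTCCtcct
Notch4: tagCATTCCcttgccactcccagtcctgtg

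A match describes the letters of a window only. No binding was measured in these libraries, and a window without a match says nothing of the factor.

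In the libraries labelled LATS1/2-KO, 6 members were lower than in control (Notch1, Notch3, Jag2, Dll4, Hes1 and Hey1), 2 were higher (Notch4 and Dll1), and Notch2 and Jag1 did not pass an adjusted p of 0.05 (edgeR's quasi-likelihood test, Benjamini-Hochberg adjusted over the 19357 genes tested; fold changes are given as log2 ± standard error). Against this stands a background of 55.7% of all genes tested that passed in this comparison, 28.7% higher and 27.1% lower. For LATS1/2-Sox9-KO against control, the same 6 members were lower, Dll1 was higher, and Notch2, Notch4 and Jag1 did not pass, beside 57.9% of all genes, 29.3% higher and 28.7% lower. The median log2 fold change of the 10 members was -1.19 in the former comparison and -1.39 in the latter, and that of all genes tested was 0.04 and 0.01. Both comparisons share the 3 control libraries, so their values are given side by side and the one is no check on the other. Of the 8 members that passed in the former, 7 changed by more than 2-fold (1 higher, 6 lower), beside 34.6% of all genes (17.1% higher, 17.5% lower), and the 7 that passed in the latter all did, beside 37.4% (17.8% higher, 19.6% lower). Adjusted for GC content, Notch1 (log2 fold change -0.70), Jag2 (-0.73) and Dll4 (-0.67) were under 2-fold in LATS1/2-KO against control, and Notch1 (-0.92) in LATS1/2-Sox9-KO against control, with Dll4 also under 2-fold in LATS1/2-KO without control replicate 2 (-0.97) and Notch1 at the 2-fold threshold without LATS1/2-KO replicate 2. The libraries of the compared genotypes did not overlap for 9 members in LATS1/2-KO against control, beside 61.6% of all genes, and for 7 members in LATS1/2-Sox9-KO against control, beside 68.8%.

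**Figure D1:**
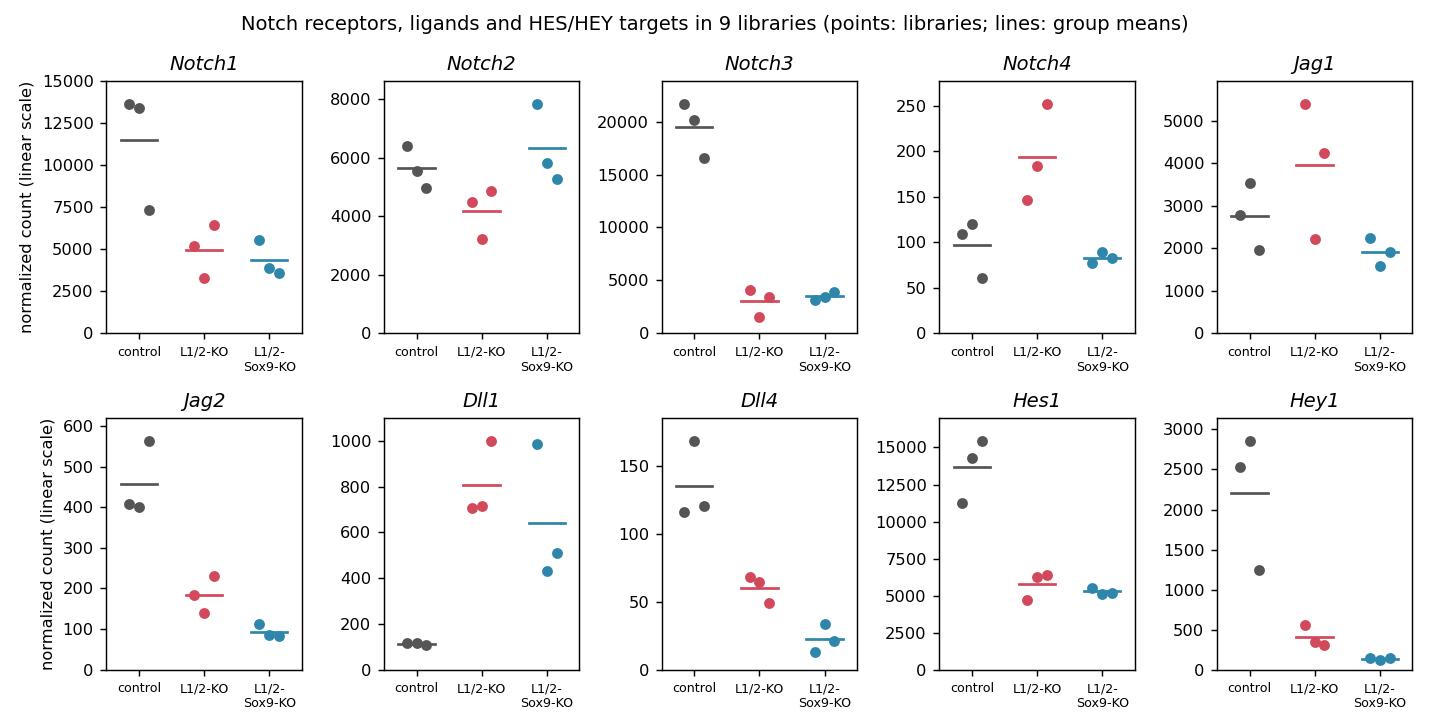
Normalized counts (vertical axis, linear scale from 0, a scale per gene) of the 10 members in the 9 libraries, with 1 point per library and a line at the mean of each genotype; L1/2 stands for LATS1/2. The deletion libraries lie below every control library for Notch1, Notch3, Jag2, Dll4, Hes1 and Hey1, and above every control library for Dll1.

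Notch3, the most abundant receptor per length in control, showed the largest decrease among the receptors. It lies on chromosome 17 from 32120820 to 32166852. Its normalized counts were 21687, 20156 and 16615 in control replicates 1, 2 and 3, 4051, 1554 and 3412 in LATS1/2-KO and 3158, 3435 and 3929 in LATS1/2-Sox9-KO libraries. The lowest control library thus held 4.10 times as much as the highest deletion library, and the deletion groups overlapped. Mean levels were 19486 ± 2601 (SD, n = 3) in control and 3006 ± 1297 in LATS1/2-KO, a 6.49-fold decrease (log2 fold change -2.70 ± 0.30, adjusted p = 5.40e-05), and 3507 ± 391 in LATS1/2-Sox9-KO libraries (log2 fold change -2.47 ± 0.30, adjusted p = 7.14e-05). It kept its direction and passed in every alternative of both control comparisons.

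Notch1 (chromosome 2, 26457903 to 26516663) is the receptor best known from T cell leukemia. Its normalized counts were 13646, 13419 and 7352 in control, 5164, 3250.1 and 6416 in LATS1/2-KO and 5551, 3895 and 3589.7 in LATS1/2-Sox9-KO libraries. Control replicate 3 was well below the other control libraries and 1.15 times as high as replicate 3 of LATS1/2-KO, although the groups did not overlap. The decrease was 2.32-fold in LATS1/2-KO (log2 fold change -1.21 ± 0.30, adjusted p = 0.00607) and 2.64-fold in LATS1/2-Sox9-KO (log2 fold change -1.40 ± 0.30, adjusted p = 0.00259).

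Notch2 (chromosome 3, 98013527 to 98150361), a widely expressed receptor, had 6408, 5559 and 4963 normalized counts in control, 4488, 3205 and 4858 in LATS1/2-KO and 7844, 5828 and 5288 in LATS1/2-Sox9-KO libraries. Each LATS1/2-KO library lay below each control library, but the closest pair, control replicate 3 and LATS1/2-KO replicate 3, were nearly equal. Neither comparison with control passed (log2 fold change -0.43 ± 0.19, adjusted p = 0.0797 for LATS1/2-KO, with a 95% interval of -0.86 to -0.00, and log2 fold change 0.16 ± 0.19, adjusted p = 0.489 for LATS1/2-Sox9-KO, with an interval of -0.26 to 0.59).

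Notch4, known chiefly from endothelial cells and from the insertion site of the mouse mammary tumor virus, was the least abundant receptor. It lies on chromosome 17 from 34564268 to 34588503. Its normalized counts were 109, 120.2 and 61.0 in control, 146, 183 and 252 in LATS1/2-KO and 77.0, 88.7 and 82.0 in LATS1/2-Sox9-KO libraries. All LATS1/2-KO libraries were above all control libraries, while LATS1/2-Sox9-KO libraries fell within the control range. The increase in LATS1/2-KO passed the test at a fold change just under the 2-fold threshold (log2 fold change 1.00 ± 0.32, adjusted p = 0.0227), and did not pass without control replicate 3 (log2 fold change 0.74, adjusted p = 0.0678) or without LATS1/2-KO replicate 3 (0.77, adjusted p = 0.0886). Over the 15 alternatives, the log2 fold change of this comparison ran from 0.74 to 1.6. LATS1/2-Sox9-KO libraries did not differ detectably from control (log2 fold change -0.23 ± 0.32, adjusted p = 0.566, 95% interval -0.95 to 0.49), and the sign changed, to 0.41 (adjusted p = 0.276), when counts were adjusted for GC content.

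Among the member ligands, Dll1 was the only one that passed as higher in a comparison with control. It is annotated on chromosome 17 from 15367354 to 15376872, and 20.5% of its exonic bases are shared with A930024N18Rik on the opposite strand. The methods speak of pairs counted on the same strand, whereas the kit named in the labels, TruSeq RNA v2, does not mark strand. How far reads of this noncoding gene entered the Dll1 count was not tested. The normalized counts of Dll1 were 115, 118 and 108 in control, 709, 714 and 1001 in LATS1/2-KO and 985, 430.5 and 509 in LATS1/2-Sox9-KO libraries. The control libraries were close together and the lowest deletion library held 3.65 times the highest of them. The increase was 7.10-fold in LATS1/2-KO (log2 fold change 2.83 ± 0.32, adjusted p = 5.74e-05) and 5.64-fold in LATS1/2-Sox9-KO (log2 fold change 2.495 ± 0.32, adjusted p = 9.72e-05), where replicate 1 was about as high as the LATS1/2-KO libraries and the other two were lower.

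Jag2 (chromosome 12, 112907819 to 112929776) and Dll4 (chromosome 2, 119325784 to 119335962) fell. Jag2 had 407, 400.3 and 564 normalized counts in control, 185, 139.8 and 231 in LATS1/2-KO and 111, 84.7 and 82.0 in LATS1/2-Sox9-KO libraries. The 3 genotypes did not overlap, and both deletion groups passed against control (log2 fold change -1.30 ± 0.26, adjusted p = 0.00179 for LATS1/2-KO and log2 fold change -2.30 ± 0.27, adjusted p = 5.64e-05 for LATS1/2-Sox9-KO). For LATS1/2-Sox9-KO against control, the log2 fold change of Jag2 ran from -2.43 to -1.68 over the 15 alternatives. Dll4, the ligand best known from the tips of sprouting vessels, had 116, 169 and 121, 68.2, 64.4 and 49.2 and 13.0, 33.9 and 20.9 normalized counts in the same order of genotypes. Its libraries likewise formed 3 ranges without overlap, at counts low enough that the lowest library held 14 reads. The decrease passed in LATS1/2-KO (log2 fold change -1.16 ± 0.37, adjusted p = 0.0238) and in LATS1/2-Sox9-KO (log2 fold change -2.58 ± 0.40, adjusted p = 0.00035). In LATS1/2-KO it did not pass with the adjustment for GC content (log2 fold change -0.67, adjusted p = 0.173), without control replicate 2 (-0.97, adjusted p = 0.0957), without LATS1/2-KO replicate 2 (-1.22, adjusted p = 0.0504) or without LATS1/2-KO replicate 3 (-1.02, adjusted p = 0.0777).

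Jag1 (chromosome 2, 137081456 to 137116644) was the most abundant ligand in every library. It had 2784, 3527 and 1960.2 normalized counts in control, 5396, 2209.7 and 4246 in LATS1/2-KO and 2235, 1589 and 1904 in LATS1/2-Sox9-KO libraries. In the LATS1/2-KO group, replicates 1 and 3 were above every control library and replicate 2 was within the control range. Neither comparison with control passed (log2 fold change 0.52 ± 0.31, adjusted p = 0.181 for LATS1/2-KO, 95% interval -0.17 to 1.21; log2 fold change -0.53 ± 0.31, adjusted p = 0.169 for LATS1/2-Sox9-KO, 95% interval -1.22 to 0.16). Without LATS1/2-KO replicate 2, Jag1 was higher in LATS1/2-KO libraries than in the controls (log2 fold change 0.79, adjusted p = 0.0234).

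Both target genes fell in both deletion groups. Hes1 (chromosome 16, 30064384 to 30067796), a repressor that many cell types express, had 11267, 14292 and 15460.0 normalized counts in control, 4724, 6236 and 6422 in LATS1/2-KO and 5523, 5133 and 5193 in LATS1/2-Sox9-KO libraries. The highest deletion library held 57.0% of the lowest control library, and the deletion groups overlapped. Hes1 fell 2.36-fold in LATS1/2-KO (log2 fold change -1.24 ± 0.15, adjusted p = 8.82e-05) and 2.59-fold in LATS1/2-Sox9-KO (log2 fold change -1.37 ± 0.15, adjusted p = 3.92e-05). Hey1 (chromosome 3, 8663359 to 8667256), a repressor of the HEY family, had 2531, 2859.9 and 1245 normalized counts in control, 564, 344 and 308 in LATS1/2-KO and 146, 124 and 143 in LATS1/2-Sox9-KO libraries. The 3 genotypes formed 3 separate ranges, with control replicate 3 lowest among the control libraries and the LATS1/2-Sox9-KO libraries close together. Hey1 fell 5.46-fold in LATS1/2-KO (log2 fold change -2.45 ± 0.33, adjusted p = 0.000159) and 16.1-fold in LATS1/2-Sox9-KO (log2 fold change -4.01 ± 0.35, adjusted p = 9.84e-06), the largest fold change of any member.

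**Figure D2:**
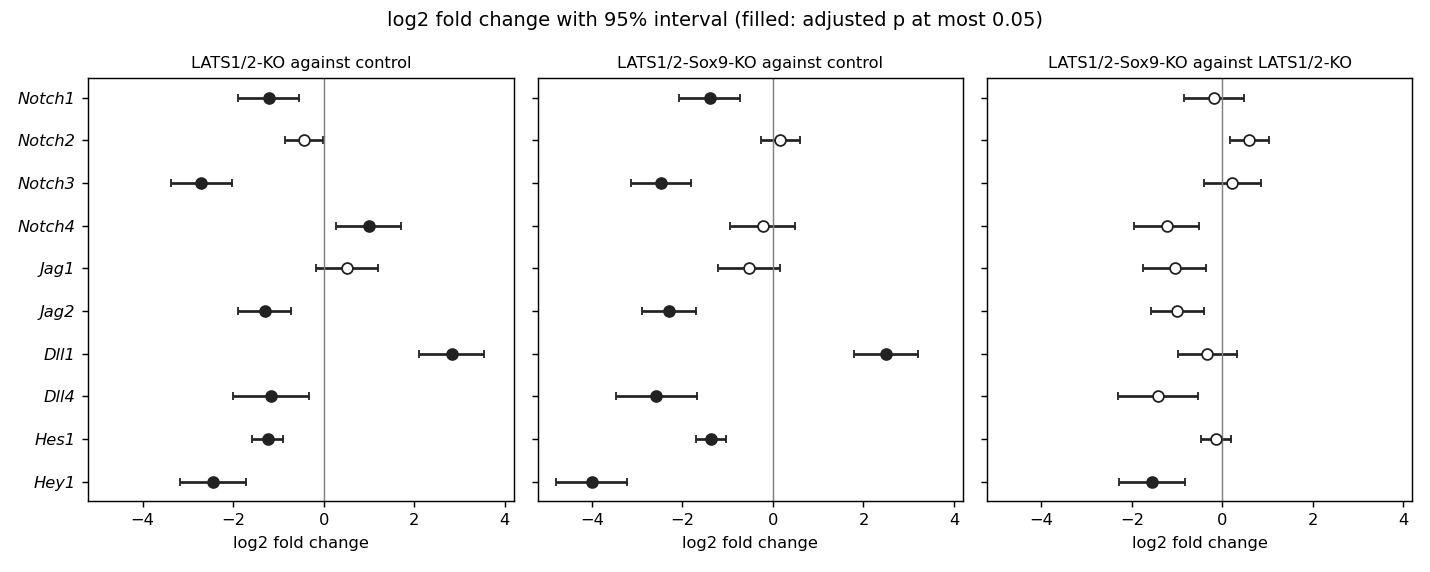
Log2 fold change (horizontal axis) of each member in the 3 comparisons, with the 95% interval from edgeR's quasi-likelihood fit and filled points where the adjusted p was at most 0.05. Dll1 lies farthest to the right in both comparisons with control, and Hey1 is the only filled point in the comparison of the deletion groups.

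To ask what the floxed Sox9 alleles added, the deletion groups were compared with each other. The Sox9 count itself did not separate these groups: their libraries overlapped and the difference did not pass (log2 fold change -0.40 ± 0.19, adjusted p = 0.250, 95% interval -0.83 to 0.03). Hey1 alone among the 10 members passed. It was 2.94-fold lower in LATS1/2-Sox9-KO than in LATS1/2-KO libraries (log2 fold change -1.56 ± 0.33, adjusted p = 0.0247, 95% interval -2.29 to -0.83), beside 6.45% of all genes tested that passed, 3.13% higher and 3.33% lower. Its change was above 2-fold, beside 3.71% of all genes (1.55% higher, 2.16% lower). Its call was lost without any 1 of the LATS1/2-Sox9-KO libraries, with adjusted p = 0.0684, 0.103 and 0.0693 without replicates 1, 2 and 3, and log2 fold changes of -1.57, -1.46 and -1.57.

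A further 3 members lay in all LATS1/2-Sox9-KO libraries below all LATS1/2-KO libraries without passing edgeR's adjusted p: Notch4 (log2 fold change -1.23 ± 0.32, adjusted p = 0.0518), Jag2 (log2 fold change -0.996 ± 0.26, adjusted p = 0.0522) and Dll4 (log2 fold change -1.42 ± 0.39, adjusted p = 0.0609). Notch2 lay above in all (log2 fold change 0.60 ± 0.19, adjusted p = 0.099). Such separation was seen in 27.9% of all genes tested. These 4 members and Jag1 (log2 fold change -1.05 ± 0.31, adjusted p = 0.0769) passed when DESeq2, the tool of the study, was used in place of edgeR. The adjusted p from DESeq2 was 0.0415 for Notch2, 0.00347 for Notch4, 0.0138 for Jag1, 0.00477 for Jag2 and 0.00658 for Dll4. DESeq2 also called more of all genes in both directions than the 605 higher and 644 lower with edgeR. Its counts are given below, under the dependence on processing. The values of the remaining members differed little between the deletion groups: the log2 difference was -0.19 for Notch1 (95% interval -0.84 to 0.47), 0.22 for Notch3 (-0.41 to 0.86), -0.33 for Dll1 (-0.99 to 0.32) and -0.13 for Hes1 (-0.47 to 0.20). At the far end of the interval, Hes1 would be 1.38-fold lower, Notch1 1.79-fold lower, Notch3 1.81-fold higher and Dll1 1.99-fold lower, so differences of that size are not excluded for these members.

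Levels between genes were compared as counts per kilobase of exon after scaling to 1000000 effective counts. In control libraries Hes1 was the highest member at 125 ± 19.7 (SD, n = 3), followed by Notch3 at 44.8 ± 5.97, and neither overlapped its neighbors in the order. Notch1 (14.98 ± 4.66), Hey1 (12.6 ± 4.86), Notch2 (9.72 ± 1.25) and Jag1 (8.79 ± 2.498) came next, and each overlapped the following one of this group. Jag2 (1.22 ± 0.247), Dll4 (0.652 ± 0.141), Dll1 (0.501 ± 0.0217) and Notch4 (0.223 ± 0.0725) were low, in 4 ranges without overlap. Dll1 therefore moved from rank 9 of 10 in control to rank 6 in both deletion groups, at 3.56 ± 0.737 in LATS1/2-KO and 2.83 ± 1.32 in LATS1/2-Sox9-KO. Hes1 stayed first at 52.9 ± 8.50 and 48.2 ± 1.92. In LATS1/2-KO libraries Jag1 (12.6 ± 5.14), Notch2 (7.21 ± 1.495), Notch3 (6.90 ± 2.98) and Notch1 (6.45 ± 2.08) followed in overlapping ranges, whereas in LATS1/2-Sox9-KO libraries Notch2 (10.9 ± 2.32) was above Notch3 (8.06 ± 0.897) in every library, and Jag1 (6.09 ± 1.03) and Notch1 (5.67 ± 1.38) overlapped.

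The summed receptor level and its makeup differed between control and deletion libraries. The 4 receptors summed to 69.7 ± 11.8 (SD, n = 3) scaled counts per kilobase in control, 21.01 ± 6.30 in LATS1/2-KO and 24.8 ± 2.94 in LATS1/2-Sox9-KO libraries. Notch3 made up 62.8% to 67.6% of this sum in control libraries, 25.9% to 38.6% in LATS1/2-KO and 25.7% to 39.2% in LATS1/2-Sox9-KO libraries. The share of Notch2 was 13.0% to 15.2% in control, 32.1% to 40.1% in LATS1/2-KO and 39.6% to 47.9% in LATS1/2-Sox9-KO libraries. Notch3 thus made up most of the summed receptor RNA in control libraries, and no receptor did so in the deletion libraries. A share of messenger RNA is not a share of receptor protein, and with 3 libraries against 3 an exact permutation test cannot give a two-sided p below 0.1.

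The summed ligand level overlapped between the genotypes. It came to 11.2 ± 2.42 (SD, n = 3) in control, 16.9 ± 5.38 in LATS1/2-KO and 9.27 ± 2.30 in LATS1/2-Sox9-KO libraries. Jag1 was the larger part throughout, with means of 77.9% in control, 72.7% in LATS1/2-KO and 66.5% in LATS1/2-Sox9-KO libraries. Dll1 made up 3.81% to 5.41% of the sum in control, 14.8% to 28.9% in LATS1/2-KO and 25.8% to 36.7% in LATS1/2-Sox9-KO libraries, while the mean share of Jag2 was 11.6% in control, against 3.01% and 2.71%.

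**Figure D3:**
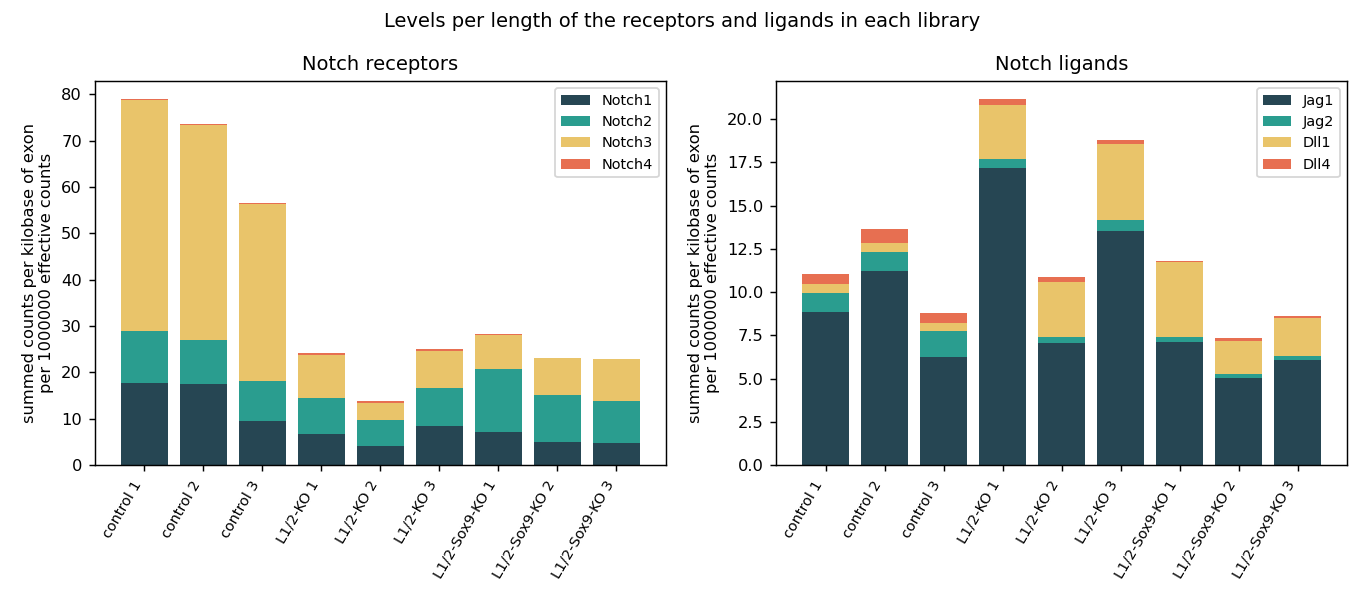
Stacked levels per length (counts per kilobase of exon after scaling to 1000000 effective counts, vertical axes from 0) of the 4 receptors on the left and the 4 ligands on the right, with 1 bar per library; L1/2 stands for LATS1/2. Notch3 is the largest block of each control bar on the left, where the summed level falls from a mean of 69.7 to 21.01 and 24.8, and the Dll1 block on the right is larger in every deletion library than in any control library.

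Around these members, 41 of 50 further genes of the pathway passed the filter on low counts. The other 9 (Dll3, Dlk1, Dner, Rbpjl, Dtx1, Hes2, Hes3, Hes5 and Helt) had at most 17 counts in any library and were not tested. In LATS1/2-KO against control, 8 of the 41 were higher, 18 lower and 15 did not pass, and in LATS1/2-Sox9-KO against control, 7 were higher, 19 lower and 15 did not pass. The median log2 fold change of the 41 was -0.16 and -0.48, beside 0.04 and 0.01 for all genes tested. The shares of genes that passed among all genes tested are those given for the members above.

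RBPJ, the DNA-binding factor on which all 4 receptors converge, did not pass at the RNA level. Rbpj had 1572, 1499 and 1537 normalized counts in control, 2071, 1639.5 and 1489 in LATS1/2-KO and 2426, 1568 and 1532 in LATS1/2-Sox9-KO libraries, in overlapping ranges (log2 fold change 0.17 ± 0.19, adjusted p = 0.470, 95% interval -0.26 to 0.60, and log2 fold change 0.26 ± 0.19, adjusted p = 0.269, 95% interval -0.17 to 0.69). Its Mastermind partners fell. Maml3 dropped from 2829, 3113 and 3389 normalized counts to 529.5, 356 and 493 in LATS1/2-KO and 239.5, 286 and 378 in LATS1/2-Sox9-KO libraries (log2 fold change -2.76 ± 0.21, adjusted p = 6.31e-06 and log2 fold change -3.37 ± 0.22, adjusted p = 1.85e-06). Maml1 was 2.46-fold lower in LATS1/2-KO (log2 fold change -1.30 ± 0.17, adjusted p = 0.000163), and Maml2 passed with smaller decreases of -0.38 and -0.68 on the log2 scale. Of the 7 tested genes of the nuclear complex, 4 were lower and 2 higher in LATS1/2-KO, and 4 lower and 1 higher in LATS1/2-Sox9-KO.

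The enzymes that cut and glycosylate the receptors moved in part. Furin, which cleaves the receptor during its maturation, had 13691, 14864 and 30457 normalized counts in control, 4602, 5054 and 8224 in LATS1/2-KO and 5781, 4513 and 4907 in LATS1/2-Sox9-KO libraries. Adam10, the protease of the ligand-induced cut, had 27160.0, 25635 and 41627, 13283, 8325 and 9601 and 8410.3, 7699.5 and 8628 in the same order. Each lay below every control library in both deletion groups (log2 fold changes of -1.72 and -1.96 for Furin and of -1.60 and -1.93 for Adam10). Of the γ-secretase subunits, Aph1c fell (log2 fold changes of -1.28 and -2.20), while Ncstn did not pass (-0.09 and -0.02). Pofut1, which adds the O-fucose that ligand binding needs, was 2.49-fold and 2.48-fold lower.

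Fringe enzymes extend that O-fucose and alter which ligands a receptor answers to. Lfng had 202, 288 and 327 normalized counts in control, 1073, 1151 and 1609.7 in LATS1/2-KO and 571, 385 and 359.8 in LATS1/2-Sox9-KO libraries. It rose 4.69-fold in LATS1/2-KO (log2 fold change 2.23 ± 0.27, adjusted p = 7.68e-05), with the LATS1/2-Sox9-KO libraries in between. Rfng went the other way, with 919, 926 and 809 normalized counts in control and at most 45.0% of the lowest control library in each deletion library (log2 fold changes of -1.72 and -1.41). Mfng did not pass in either comparison.

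Of the E3 ligases that drive uptake of the ligand, Mib2 fell and Neurl1b rose. Mib2 had 4456, 4187 and 3988 normalized counts in control, 1124, 579.5 and 794 in LATS1/2-KO and 1172, 729 and 620.3 in LATS1/2-Sox9-KO libraries (log2 fold change -2.34 ± 0.28, adjusted p = 8.05e-05 and log2 fold change -2.32 ± 0.28, adjusted p = 6.91e-05). Neurl1b had 34.8, 35.2 and 12.4, 84.2, 177 and 241 and 247, 158 and 172 in the same order (log2 fold change 2.598 ± 0.49, adjusted p = 0.00131 and log2 fold change 2.80 ± 0.49, adjusted p = 0.00077). Mib1, the homolog of Mib2, did not pass, with log2 fold changes of 0.15 and -0.14. Dtx3, of the Deltex family of ligases, had 8987, 9806 and 9668 normalized counts in control and at most 38.5% of the lowest control library in each deletion library (log2 fold changes of -1.61 and -1.93).

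Of the 4 other HES/HEY genes tested, Heyl alone passed. It had 405, 429 and 85.9 normalized counts in control, 6.02, 5.93 and 0 in LATS1/2-KO and 4.64, 21.9 and 2.73 in LATS1/2-Sox9-KO libraries, so that control replicate 3 was well below the other control libraries and the deletion libraries were near or at 0. The fitted log2 fold changes of -6.23 (standard error 1.04) and -4.97 (standard error 0.95) rest on few counts in the deletion groups. Hes6, Hes7 and Hey2 did not pass in either comparison with control.

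**Figure D4:**
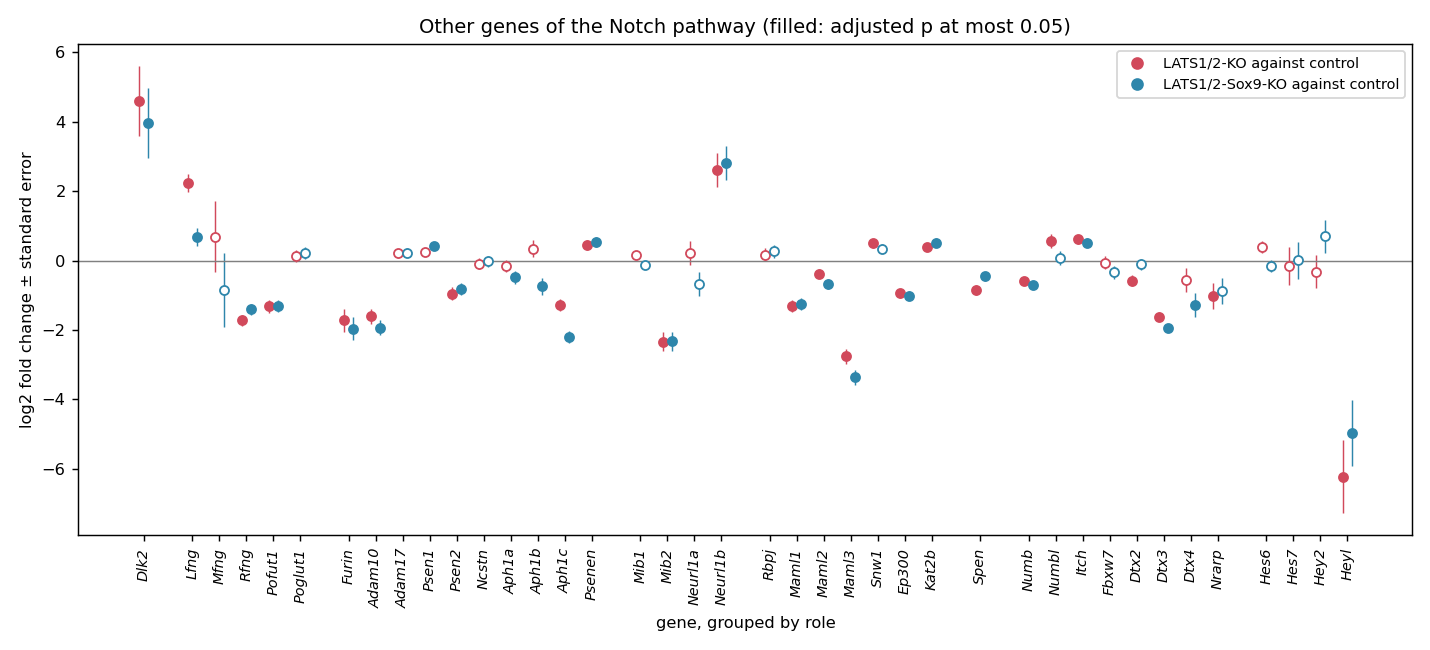
Log2 fold change ± standard error (vertical axis) of 40 of the 41 tested genes of the wider pathway list in both comparisons with control, ordered by role along the horizontal axis, with filled points where the adjusted p from edgeR was at most 0.05. Heyl and Maml3 are the lowest and Dlk2 and Neurl1b the highest, with Lfng next in LATS1/2-KO against control. The values of Dlk2 rest on few counts, with at most 3 in any control library.

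Between the deletion groups, 3 of the 41 genes passed, all of them lower in LATS1/2-Sox9-KO, beside the 3.33% of all genes that were lower. Lfng was 2.91-fold lower (log2 fold change -1.54 ± 0.26, adjusted p = 0.0119). Aph1b, with 1309.5, 1073 and 1232 normalized counts in control, 1192, 1752 and 1617 in LATS1/2-KO and 459, 773 and 923 in LATS1/2-Sox9-KO libraries, was 2.12-fold lower (log2 fold change -1.08 ± 0.25, adjusted p = 0.0328), and Aph1c, with 676, 573 and 634 against 363, 297 and 332, was 1.90-fold lower (log2 fold change -0.92 ± 0.17, adjusted p = 0.0169). APH-1 proteins are scaffold subunits of γ-secretase, and as Aph1b and Aph1c are close copies of each other, the split of reads between them is uncertain. Without LATS1/2-Sox9-KO replicate 2, 0 of the 41 passed as lower, and without LATS1/2-KO replicate 3, 1 did.

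Several members are also expressed outside the epithelium, and in bulk libraries fewer cells of a type and less RNA per cell cannot be told apart. Notch4 and Dll4 are known from endothelium. The 10 endothelial markers summed to a median of 6061 normalized counts in control, 943 in LATS1/2-KO and 982.5 in LATS1/2-Sox9-KO libraries, with none at 0 in any library, and Vwf made up most of the control sum (5566, 4609.7 and 5222). Pecam1 and Cdh5, which define endothelial cells, did not fall in step: Pecam1 had 270.2, 268 and 467 normalized counts in control, 319.9, 303 and 215 in LATS1/2-KO and 61.3, 209 and 336 in LATS1/2-Sox9-KO libraries, and Cdh5 had 74.2, 47.6 and 74.7, 168, 112 and 73.0 and 30.6, 90.7 and 98.4. In LATS1/2-KO, 1 of the 10 was higher than in control (Kdr), 1 lower (Vwf) and 8 did not pass, and in LATS1/2-Sox9-KO, 1 was higher (Kdr), 2 lower (Tek and Vwf) and 7 did not pass. The part of endothelial RNA in the levels of Notch4 and Dll4 was not tested.

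Notch3 is a receptor of pericytes and mural cells as well. The 6 mural markers summed to a median of 173 normalized counts in control, 157 in LATS1/2-KO and 93.7 in LATS1/2-Sox9-KO libraries, with Rgs5 the most abundant in control libraries. Pdgfrb, a defining marker, had 23.2, 29.5 and 18.7 normalized counts in control, 75.2, 25.4 and 37.4 in LATS1/2-KO and 15.8, 41.9 and 45.5 in LATS1/2-Sox9-KO libraries. Higd1b and Kcnj8 were at 0 in some libraries and were not tested. Of the 4 that were, Rgs5 was lower in both deletion groups, like Notch3 (log2 fold change -2.28 ± 0.69, adjusted p = 0.0175 for LATS1/2-KO and log2 fold change -2.65 ± 0.71, adjusted p = 0.00872 for LATS1/2-Sox9-KO). Cspg4 was higher in LATS1/2-KO (log2 fold change 2.34 ± 0.78, adjusted p = 0.0269) and did not pass in LATS1/2-Sox9-KO, and Pdgfrb and Abcc9 passed in neither. In control replicates 1, 2 and 3 the sum of all 6 was 0.797%, 0.720% and 1.43% of the Notch3 count. Of the other cell types, 6 fibroblast markers summed to medians of 4173, 2743 and 3077. Dcn was the most abundant of them in control libraries and passed as lower in both deletion groups (log2 fold changes of -2.24 and -4.79), while Col1a1 (1.90 and 2.37) and Col3a1 (3.14 and 3.04) passed as higher. The 6 immune markers summed to medians of 440.0, 2677 and 3398, of which Csf1r gave the larger part in the deletion libraries and Cd3e was at 0 in all 9. Csf1r passed as higher in both deletion groups (log2 fold changes of 3.87 and 4.35), while Ptprc, Cd79a, Lyz2 and Cd52 passed in neither. The part of fibroblast and immune RNA in the results was not tested.

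The genes most like 3 of the members over the 9 libraries were found by Pearson's r of log2 scaled counts among the 13171 tested genes that averaged at least 100 normalized counts. For Notch3 these were Mtch1 (r = 0.995), Brpf3 (0.993) and Smim3 (0.993), for Jag1 Fzd2 (0.917), Pcdhb17 (0.915) and Itgb3 (0.907), and for Hes1 Limk2 (0.994), P2ry4 (0.993) and Slc5a6 (0.992). The points are libraries of 3 genotypes, so a gene that separates control from deletion libraries gives a high r for Notch3 or Hes1 whatever its function, whereas the groups overlapped for Jag1.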

How the data were processed

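Reads were mapped to mm10 by the authors (STAR 2.6.0c), who counted fragments per Ensembl gene by featureCounts (Subread 1.6.2), and the deposited values are raw counts for each library, without normalization and without mitochondrial genes. FastQC 0.11.7 is also named in the submitters' processing notes. Their methods state that DESeq2 was used for testing.

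From the counts, edgeR 4.0.16 in R 4.3.3 was used with filterByExpr, TMM factors and a quasi-likelihood fit of the 3 group means over 9 libraries, with Benjamini-Hochberg adjusted p-values over 19357 genes. A gene was called changed at an adjusted p of at most 0.05, and changed by more than 2-fold at an absolute log2 fold change above 1 in addition. Standard errors and 95% intervals are from the same fit. Lengths and positions are those of GENCODE M21 (GRCm38). The code was tested on simulated counts. The depth leaves counting error small except for genes near 0, and 3 libraries per group set the precision.

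The members and lists were chosen with earlier results of these data known. All members, the targeted genes and Rbpj were named, and of the wider list the genes changed by more than 2-fold, averaging 100 or more normalized counts in the group with more and without overlapping libraries, at most 10 per direction, and 1 gene of this list is counted but not reported singly here. Maml2, Ncstn, Mfng, Mib1, Dlk2, Aph1c (between the deletion groups), Hes6, Hes7 and Hey2 were named after their values were seen. The alternatives were DESeq2 1.42.0, RLE or upper-quartile factors, TMM without the 100 most counted genes, no filter, at least 10 counts in every library, a fit of only the 2 groups compared, a replicate block, an adjustment for GC content, and each library left out in turn.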

Additional observations from a re-analysis of the deposited data

Results flagged for a closer look

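Effects against control that differed between the deletion genotypes, by the direct edgeR test of LATS1/2-Sox9-KO against LATS1/2-KO libraries, were found in 4 genes of the members and the wider pathway list. Hey1 was lower in LATS1/2-Sox9-KO by a log2 difference of -1.56, with 3 of 3 libraries below all of LATS1/2-KO (adjusted p = 0.0247), and this call was lost without any 1 of the LATS1/2-Sox9-KO libraries. Lfng, the Fringe enzyme, differed by -1.54 (adjusted p = 0.0119), and it was higher than control in both deletion groups. Aph1b differed by -1.08 (adjusted p = 0.0328) and Aph1c by -0.92 (adjusted p = 0.0169), each with 3 of 3 libraries lower. Without LATS1/2-Sox9-KO replicate 2, 0 of these 3 genes of the wider list passed, and without LATS1/2-KO replicate 3, 1 gene of the list did.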

How the results depend on the processing

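Notch1, Notch3, Jag2, Dll1, Hes1 and Hey1 kept their direction and passed in all 15 alternatives of both comparisons with control. The adjustment for GC content took Notch1 (-0.70) and Jag2 (-0.73) in LATS1/2-KO and Notch1 (-0.92) in LATS1/2-Sox9-KO below 2-fold. Of 450 member values under alternatives, 417 kept direction and side of the threshold, 9 lost and 20 gained a call, and 4 changed sign. Adjusted for GC content, LATS1/2-Sox9-KO against control had 2 members higher (Dll1 and Notch2), and Notch4 changed sign there to 0.41.

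The comparison of the deletion groups depended most on the settings. Beside 0 members higher and 1 lower, DESeq2 gave 1 higher and 5 lower, with 1 gene of the wider list higher, and 1311 of all genes higher and 1298 lower in place of 605 and 644. The members lower were 3 with upper-quartile factors, 4 with at least 10 counts in every library, 3 with the GC adjustment and 2 in the fit of the compared groups alone. Without a filter 1 was higher and 2 lower. Apart from DESeq2, counts of all genes called under these settings are not given here. These member counts therefore have no background share beside them and are no result about the members. At an unadjusted p under 0.05 from edgeR, 1 member was higher and 5 lower, with no share of all genes at that threshold to set beside them. Upper-quartile factors moved the share of higher calls among all genes from 48.4% to 39.4%. The cause was not tested.

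With each library left out in turn, between 1 and 3 members and between 4 and 9 genes of the wider list were higher in LATS1/2-KO than in control. Counts of all genes in these fits against control are not given here, so these ranges have no background share beside them. Between the deletion groups, 0 to 3 members and 0 to 3 listed genes were lower, and 155 to 1012 of all genes were higher and 94 to 1032 lower, the fewest without LATS1/2-Sox9-KO replicate 2 and the most without LATS1/2-KO replicate 1. The log2 fold changes that changed sign were Notch2 in LATS1/2-Sox9-KO against control (-0.0026 without LATS1/2-Sox9-KO replicate 1, up to 0.29) and, between the deletion groups, Notch3 (-0.06 without LATS1/2-KO replicate 2, up to 0.50) and Notch1 (0.05 without LATS1/2-KO replicate 3, down to -0.39).

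Same-numbered libraries deviated together with r over 0.1 in 2 of 9 pairs (-0.136 to 0.374), and 5 of 9 libraries were most like one of their own number, so the numbers were not taken to pair the libraries. With the replicate number as a block, 2 members were higher and 6 lower in LATS1/2-KO than in control, 1 and 6 in LATS1/2-Sox9-KO, and 0 and 1 between the deletion groups, the last beside 472 of all genes higher and 503 lower. For both comparisons with control, counts of all genes in the fit with this block are not given here.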
